A study of Homo sapiens with 12 samples.

Results

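The cyclins, cyclin-dependent kinases (CDKs) and CDK inhibitors of the G1 phase were examined as 10 genes of the 58884 in the count table, namely CDKN2C, CDKN2D, CDKN1A, CDKN1B, CCND2, CCND3, CDK4, CDK6, CCNI and CDK5R1. Each was found by its Ensembl identifier. CDKN2C was taken because the study measured it by qRT-PCR, whereas CCNI and CDK5R1 were chosen by their counts in TMD8, which were higher with OF than with isotype. Those TMD8 values are given below as a description, and neither gene gets a test in any comparison that uses TMD8. The other 7 genes were listed by function, with earlier results of these data known.

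RNA was sequenced from U2932 and TMD8, established diffuse large B-cell lymphoma (DLBCL) lines of the activated B-cell subtype, both wild type by their labels. The cells were exposed for 4 h to 20 µg/mL of the anti-CD20 antibody rituximab (R), the anti-CD20 antibody ofatumumab (OF) or a human IgG1 isotype control. Each of the 6 conditions has 2 libraries. Each line was split into 2 cultures kept apart for a week, so that same-numbered libraries of a line share a culture. Both lines are of the same subtype, and a comparison of them is between 2 single lines. All cells grew in medium with heat-inactivated serum, and no condition without an antibody was analysed here.

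Passage through G1 is driven by D-type cyclins bound to CDK4 or CDK6, which phosphorylate the retinoblastoma protein and free E2F transcription factors to switch on genes of DNA replication. Inhibitors of the INK4 family bind CDK4 and CDK6 themselves, whereas the CIP/KIP family binds cyclin and kinase together. Mature B cells use cyclins D2 and D3, and the INK4 protein p18 is known for restraining the cycle in B cells that become plasma cells.

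Total counts ranged from 15440226 to 27110612 per library, and levels are given as depth-scaled counts (CPM) after TMM normalization. The B-cell markers MS4A1, CD79A, CD79B and PAX5 were present in every library, with at least 738 reads each, and MS4A1, the gene of CD20, and CD79A were called higher with both antibodies in U2932. The T-cell, myeloid and natural killer markers CD3D, CD3E, LYZ, CD14 and NCAM1 had at most 17 reads. COL1A1 had at most 147 reads, and EPCAM had 509 to 833 reads in U2932 and at most 3 in TMD8. The second-culture libraries of OF and isotype in TMD8 stood apart, with 6.50 to 7.16% of counts on ribosomal protein genes against 10.0 to 10.8% in the rest of TMD8, and their part in the TMD8 results was not tested beyond the fits that leave them out. Fold changes were also less precise in TMD8, where the standard error had a median of 0.251 against 0.124 in U2932. In bulk RNA, fewer cells expressing a gene and less RNA per cell cannot be told apart.

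Regions upstream of the start sites are shown for CDKN2C and CCNI, an inhibitor and a cyclin that were higher with both antibodies in both lines and whose first listed window lies mostly or wholly outside annotated exons. They come from the RefSeq promoter table on GRCh38.p14 and stop before the first exon base of GENCODE 29. The CDKN2C stretch, a whole window, covers chr1:50960495-50960744 on the plus strand and the CCNI stretch covers chr4:77076006-77076239 on the minus strand, both upstream of the annotated gene. Capitals mark the cyclic AMP response core TGACGT, the CCAAT box and the SP1 box GGGCGG, on either strand.
CDKN2C: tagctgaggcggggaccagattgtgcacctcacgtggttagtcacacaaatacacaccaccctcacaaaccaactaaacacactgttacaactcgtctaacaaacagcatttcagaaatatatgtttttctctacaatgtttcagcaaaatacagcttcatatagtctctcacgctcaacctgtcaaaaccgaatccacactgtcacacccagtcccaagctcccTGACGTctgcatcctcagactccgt
CCNI: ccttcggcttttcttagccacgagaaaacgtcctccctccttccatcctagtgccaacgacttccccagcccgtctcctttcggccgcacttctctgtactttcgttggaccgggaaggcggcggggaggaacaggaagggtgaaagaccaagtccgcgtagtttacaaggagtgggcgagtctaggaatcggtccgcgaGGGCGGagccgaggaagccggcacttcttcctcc
The CDKN2C stretch holds TGACGT at positions -25 to -20 from the start site, and the CCNI stretch holds GGGCGG at -50 to -45. Over the 15 windows of 250 bases listed for 9 of the 10 genes, TGACGT was in 3 windows, of CDKN2C and CDK6, against 7.09% of 34788 distinct windows of that length, while GGGCGG was in 12 windows, of all 9 genes, against 42.6%. CCAAT was in 5 windows of 4 genes, against 32.0%. The E2F letters TTTCCCGC and TTTGGCGC, the full response element TGACGTCA, the FOXO letters TGTTTAC and the ATF4 element TGATGCAA were in none of the 15 windows. These are matches of letters, and binding was not measured.

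In U2932, CDKN2C, CDKN1A, CCNI and CDK5R1 rose with both antibodies, and no member fell by 1.5-fold or more. The test was edgeR's quasi-likelihood test over all genes, and a gene was called at a Benjamini-Hochberg adjusted p-value under 0.10 with a change of at least 1.5-fold. With R, 4 of the 9 members with enough counts were called, all higher, where 10.2% of the 14635 genes tested were called in either direction and 5.19% were called higher. With OF, the same 4 were called, against 11.1% of all genes in either direction and 5.9% higher. Both comparisons use the same 2 isotype libraries. Of these 4 genes, CCNI and CDK5R1 were chosen by their TMD8 counts, and all members were chosen with earlier results of these data known. The members' shares and medians are therefore not those of an unselected set. On the adjusted p-value alone, 8 of 9 passed with R and 6 of 9 with OF, beside 34.2% and 36.4% of all genes. The median log2 fold change over the 9 members was 0.43 with R and 0.53 with OF, against −0.02 and 0.01 over all genes tested. The libraries of antibody and isotype did not overlap for 9 of 9 members with either antibody, which held for 59.7% of all genes with R and 64.2% with OF.

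In TMD8, CDKN2C was called, higher with each antibody, and was the only 1 of the 8 members tested to be called. Of 14227 genes, 0.647% were called with R (0.401% higher) and 0.815% with OF (0.471% higher). At an unadjusted p-value under 0.05 stood 4 of 8 members with R and 3 of 8 with OF, beside 15.9% and 14.1% of all genes. The number depended on whether the culture number entered the fit. Over the genes tested, the difference between the 2 cultures correlated at 0.685 between OF and isotype. It correlated less between R and OF (0.221) and between R and isotype (0.226), so the block is a weaker description of the R libraries. With the culture number as a block, 4 of 8 were called with R, namely CDKN2C, CDKN1A, CCND2 and, lower, CDK6, beside 11% of all genes, and 3 of 8 with OF, namely CDKN2C, CDKN1A and CCND2, beside 9.75%. Antibody and isotype libraries did not overlap for 7 of the 8 with R and for 5 of the 8 with OF, against 47.9% and 38.6% of all genes. Without the 2 libraries that stood apart, 3 of 8 were called with either antibody, in a fit that called 13.4% of all genes with R and 12.4% with OF. That fit leaves OF and isotype with 1 library each, whose spread is taken from the R libraries.

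**Figure D1:**
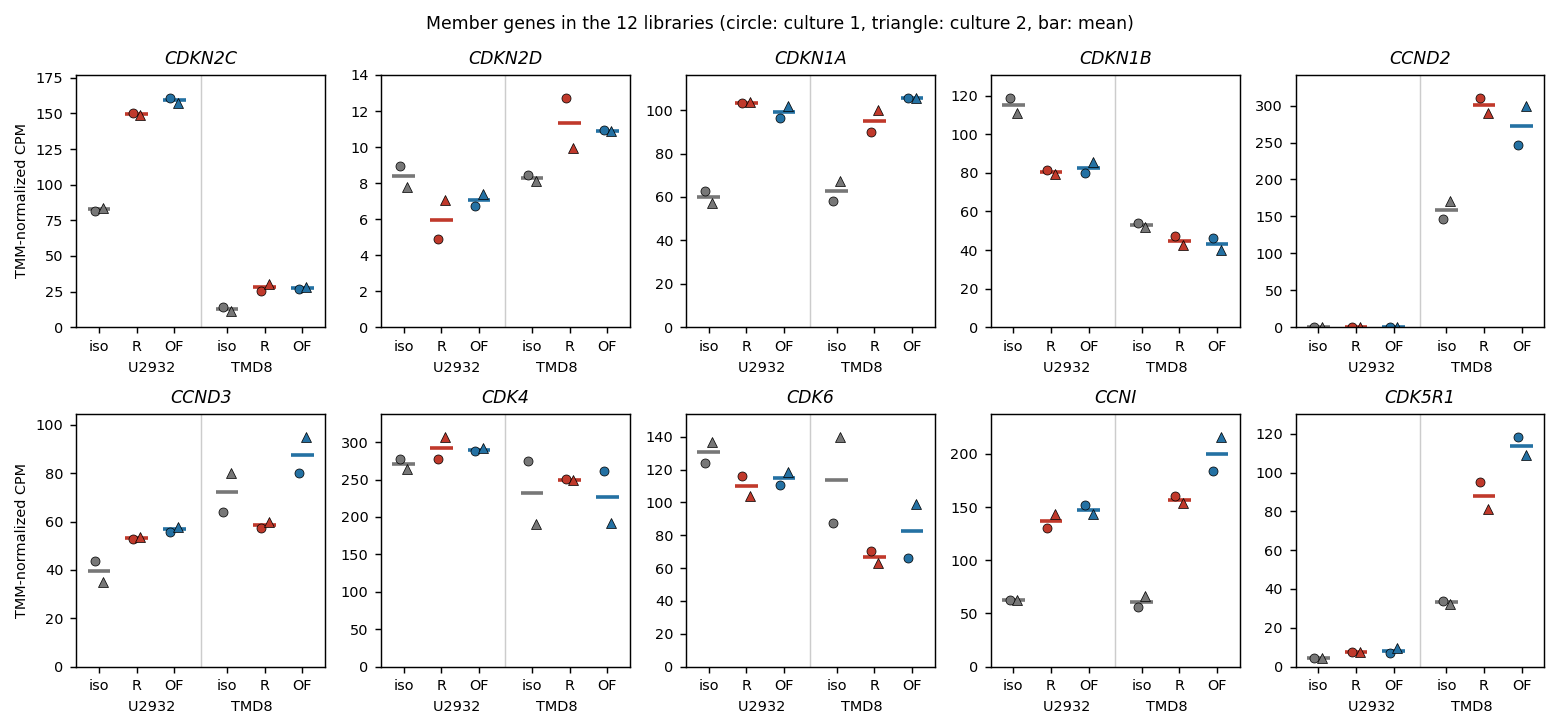
TMM-normalized CPM of the 10 genes (linear vertical axes from 0) in the isotype (grey), R (red) and OF (blue) libraries of U2932, left, and TMD8, right, with circles for culture 1, triangles for culture 2 and bars for the mean of 2 libraries. CDKN2C, CDKN1A, CCNI and CDK5R1 lie above isotype with both antibodies in both lines, CDKN1B lies below it, and CCND2 is at or near 0 in U2932.

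CDKN2C encodes p18, an INK4 inhibitor that binds CDK4 and CDK6. It lies at chr1:50960745-50974633 on the plus strand of GRCh38, and its exons overlap no other annotated gene. In U2932 it stood at 81.6 and 83.8 CPM with isotype, 150.1 and 149 CPM with R, and 161 and 157 CPM with OF. The 4 anti-CD20 libraries lay far above the isotype pair, with a log2 fold change of 0.86 for R (SE 0.088, adjusted p = 6.24e-08, edgeR) and of 0.95 for OF (SE 0.088, adjusted p = 1.43e-08). In TMD8 it stood at 14.0 and 11.7 CPM with isotype, 25.7 and 30.2 CPM with R, and 26.9 and 28.2 CPM with OF. Again both anti-CD20 pairs lay above isotype without overlap.

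The log2 fold change of CDKN2C in TMD8 was 1.13 for R (SE 0.18, adjusted p = 0.0949, edgeR) and 1.11 for OF (SE 0.18, adjusted p = 0.0950), and 0.00664 and 0.00826 were the adjusted p-values with the culture as a block. Each culture alone gave the same direction, at 0.87 and 1.37 with R and at 0.94 and 1.27 with OF. The unblocked calls stood close to their limit. With R, the call was lost without R replicate 1 (1.24, adjusted p = 0.894), R replicate 2 (1.03, 0.688), OF replicate 1 (1.14, 0.106), OF replicate 2 (1.14, 0.105) or isotype replicate 2 (1.00, 0.139). With OF, it was lost without R replicate 1 (adjusted p = 0.375), R replicate 2 (0.376), OF replicate 1 (0.306), OF replicate 2 (0.315) or isotype replicate 1 (0.121), with log2 fold changes from 1.09 to 1.27.

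CDKN2D encodes p19, the other INK4 inhibitor among the members, at chr19:10566462-10569059. In U2932 it was at 8.95 and 7.80 CPM with isotype, 4.88 and 7.04 CPM with R, and 6.71 and 7.37 CPM with OF. Both anti-CD20 pairs lay below isotype, but the R libraries differed widely between cultures, whose own log2 differences were −0.86 and −0.15. The fitted log2 fold change with R was −0.49 (SE 0.175, adjusted p = 0.0388, edgeR), which passed the limit on the adjusted p-value at less than 1.5-fold, and −0.24 (adjusted p = 0.308) with OF. Without R replicate 2 the value was −0.77 (adjusted p = 0.012), and without R replicate 1 or isotype replicate 1 it was −0.25 (adjusted p = 0.415) or −0.39 (adjusted p = 0.157). In TMD8 it was at 8.45 and 8.13 CPM with isotype, 12.8 and 9.94 CPM with R, and 10.9 and 10.9 CPM with OF, so that the order of antibody and isotype was the opposite of that in U2932. The log2 fold changes there, 0.46 (SE 0.204, adjusted p = 0.334, edgeR) and 0.40 (SE 0.205, adjusted p = 0.432), did not pass.

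CDKN1A encodes p21, the CIP/KIP inhibitor best known as a target of p53, at chr6:36676460-36687339. In U2932 it was at 62.6 and 57.2 CPM with isotype, 103 and 104 CPM with R, and 96.3 and 102 CPM with OF. Isotype lay below all 4 anti-CD20 libraries, and the log2 fold change of CDKN1A with R was 0.79 (SE 0.094, adjusted p = 5.35e-07, edgeR). With OF it was 0.73 (SE 0.094, adjusted p = 1.83e-06). In TMD8 it was at 58.2 and 67.3 CPM with isotype, 89.9 and 99.9 CPM with R, and 106 and 106 CPM with OF. The groups did not overlap, and the values were close to those of U2932 in every condition. The log2 fold changes in TMD8 were 0.61 (SE 0.153, adjusted p = 0.151, edgeR) and 0.76 (SE 0.153, adjusted p = 0.122), and the adjusted p-values were 0.0221 and 0.0125 with the culture as a block. Without isotype replicate 2, the OF value was 0.85 (adjusted p = 0.0912). Its exons share 146 bases with the opposite-strand gene DINOL, whose reads cannot be told apart there since use of strand in counting was not given in the sources used here.

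CDKN1B encodes p27, a CIP/KIP inhibitor that is high in resting cells and is lost as they enter the cycle, at chr12:12715058-12722371. In U2932 it was at 119 and 111 CPM with isotype, 81.6 and 79.5 CPM with R, and 79.7 and 85.5 CPM with OF. All 4 anti-CD20 libraries lay below isotype, opposite to CDKN2C and CDKN1A. The log2 fold change was −0.52 for R (SE 0.092, adjusted p = 0.00013, edgeR) and −0.47 for OF (SE 0.092, adjusted p = 0.000336), past the limit on the adjusted p-value but short of 1.5-fold. In TMD8 it was at 54.1 and 51.7 CPM with isotype, 47.2 and 42.5 CPM with R, and 46.0 and 40.2 CPM with OF. The pairs lay in the same order without overlap, with log2 fold changes of −0.23 (SE 0.158, adjusted p = 0.52, edgeR) and −0.29 (SE 0.159, adjusted p = 0.471) that did not pass.

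**Figure D2:**
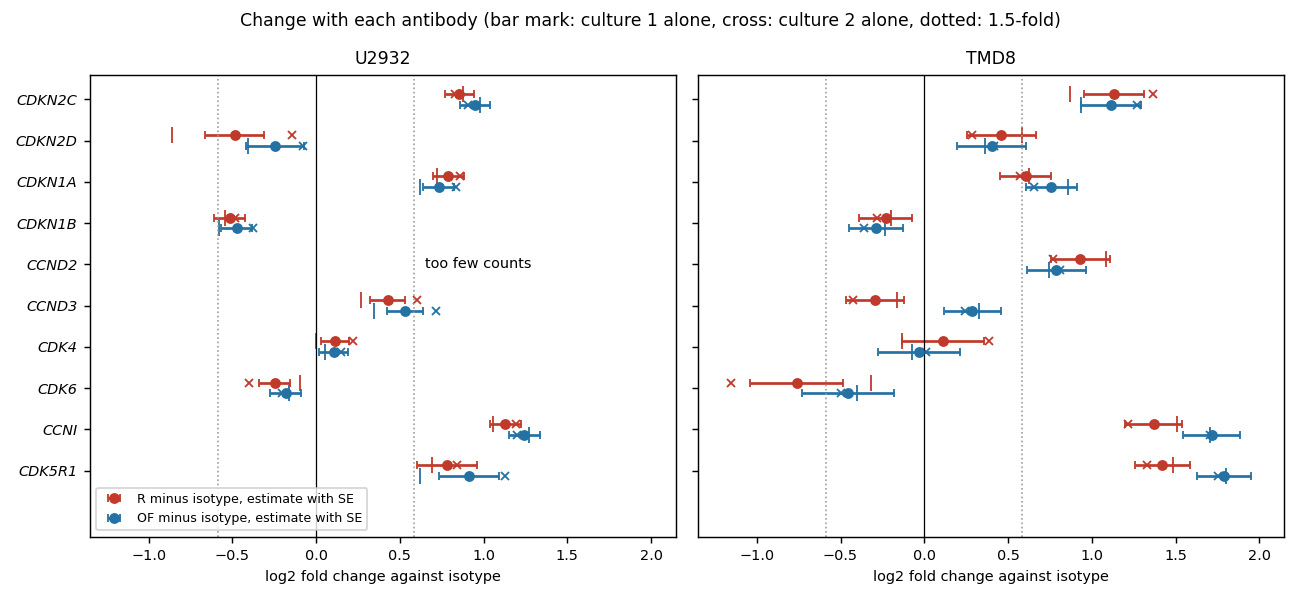
Log2 fold change against isotype for the 10 genes with R (red) and OF (blue) in U2932, left, and TMD8, right, as fitted values with standard errors, with each culture's own difference as a bar mark (culture 1) or a cross (culture 2) and dotted lines at 1.5-fold. Standard errors are wider in TMD8, CDKN2D lies on opposite sides of 0 in the 2 lines, and the cultures differ most for CDK6 with R in TMD8, at −0.32 and −1.15.

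Of the D-type cyclins, CCND2 was almost unread in U2932 and abundant in TMD8. CCND2, which encodes cyclin D2 at chr12:4273772-4305350, had 4 reads over all U2932 libraries, with 1, 1 and 2 of them in R, OF and isotype replicate 1 and 0 in the replicate 2 libraries. Across the U2932 libraries a count of 0 allows up to 0.131 to 0.175 CPM, taking 3 counts as the limit, and the gene was too low in U2932 for a test. In TMD8 it was at 147 and 170.4 CPM with isotype, 311 and 291 CPM with R, and 246 and 299 CPM with OF. Both anti-CD20 pairs lay above isotype, and each culture gave a higher value with either antibody.

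The log2 fold change of CCND2 in TMD8 was 0.93 for R (SE 0.177, adjusted p = 0.104, edgeR) and 0.79 for OF (SE 0.176, adjusted p = 0.142), so that neither was called, and the adjusted p-values were 0.00888 and 0.0181 with the culture as a block. Without the 2 libraries that stood apart, the values were 1.03 and 0.74 and both were called. CCND2 shares 989 exon bases with AC008012.1 on its own strand and 126 with CCND2-AS1 on the other, so counts over those bases are uncertain. In the isotype libraries, TMD8 held 7368 reads of CCND2 against 2 in U2932, a depth-scaled ratio of 3640 with an exact 95% interval from 1010 to 30100 that covers counting error only.

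CCND3, which encodes cyclin D3 at chr6:41934933-42050357, is the main D-type cyclin of germinal centre B cells. In U2932 it was at 43.8 and 35.2 CPM with isotype, 52.7 and 53.4 CPM with R, and 55.6 and 57.9 CPM with OF. Isotype was lowest, and the log2 fold change was 0.43 for R (SE 0.107, adjusted p = 0.00373, edgeR) and 0.53 for OF (SE 0.107, adjusted p = 0.000507), past the limit on the adjusted p-value and short of 1.5-fold. Without isotype replicate 1, the higher of the isotype pair, the values were 0.59 (adjusted p = 0.000102) and 0.69 (adjusted p = 1.59e-05), past both limits. Without isotype replicate 2, they were 0.27 (adjusted p = 0.0409) and 0.38 (adjusted p = 0.00661).

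In TMD8, CCND3 was at 64.0 and 80.3 CPM with isotype, 57.2 and 59.7 CPM with R, and 80.3 and 95.1 CPM with OF. The R pair lay lowest, and the OF and isotype pairs touched at 80.3. The log2 fold change was −0.30 for R (SE 0.173, adjusted p = 0.451, edgeR) and 0.29 for OF (SE 0.172, adjusted p = 0.517), neither of which passed. Direct comparison of R with OF gave −0.58 for CCND3 (SE 0.173, 95% interval −0.995 to −0.171, adjusted p = 0.733, edgeR), lower with R in both cultures at −0.49 and −0.67. The adjusted p-value was 0.269 with the culture as a block in edgeR. Without the 2 libraries that stood apart, which leaves OF with 1 library, the value was −0.46, short of 1.5-fold and not called.

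Of the kinases that D-type cyclins activate, CDK4, at chr12:57747727-57756013, was at 277 and 264 CPM with isotype, 278 and 307 CPM with R, and 288 and 292 CPM with OF in U2932. The isotype and R ranges nearly met, and the log2 fold changes were 0.11 (95% interval −0.062 to 0.286, adjusted p = 0.355, edgeR) and 0.10 (95% interval −0.070 to 0.279, adjusted p = 0.385). In TMD8 it was at 275 and 190.3 CPM with isotype, 251 and 249 CPM with R, and 261 and 192 CPM with OF. The 2 low values belong to the 2 libraries that stood apart. The log2 fold changes of 0.11 (95% interval −0.474 to 0.693) and −0.03 (95% interval −0.618 to 0.550) had adjusted p-values of 0.861 and 0.973 with edgeR. Without those 2 libraries, the values were −0.15 and −0.09. CDK4 shares 1369 of its 3168 exon bases with the opposite-strand gene TSPAN31, so counts over those bases are uncertain.

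CDK6, at chr7:92604921-92836594, was at 124 and 137 CPM with isotype, 116 and 104 CPM with R, and 111 and 119 CPM with OF in U2932. Every anti-CD20 library was lower than both isotype libraries, with log2 fold changes of −0.25 for R (SE 0.094, adjusted p = 0.0502, edgeR) and −0.18 for OF (SE 0.094, adjusted p = 0.153). The R value passed the limit on the adjusted p-value at less than 1.5-fold, and it was −0.15 (adjusted p = 0.113) after a correction for GC content. The limit was also missed without R replicate 2 (−0.16, adjusted p = 0.367), isotype replicate 2 (−0.18, 0.18), OF replicate 1 (−0.25, 0.118) or OF replicate 2 (−0.25, 0.108), and in 1 fit of all 12 libraries (−0.25, 0.607).

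In TMD8, CDK6 was at 87.3 and 140.0 CPM with isotype, 70.1 and 62.8 CPM with R, and 66.0 and 99.0 CPM with OF. The R pair lay below isotype, while the OF pair overlapped it, and the values of 140.0 and 99.0 CPM came from the 2 libraries that stood apart. The log2 fold change was −0.76 for R (SE 0.278, adjusted p = 0.259, edgeR) and −0.45 for OF (SE 0.276, adjusted p = 0.523), and R was called only with the culture as a block (−0.72, adjusted p = 0.0528), without isotype replicate 1 (−1.05, adjusted p = 0.0974), with all 12 libraries in one fit (−0.78, adjusted p = 0.0636), without a filter on low counts or with the block and the correction for GC content together. Without the 2 libraries that stood apart it was −0.40 (adjusted p = 0.00925), below 1.5-fold.

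CCNI encodes cyclin I, a cyclin-box protein that binds CDK5 in postmitotic cells, and lies at chr4:77047158-77076005 on the minus strand. In U2932, whose libraries did not enter its choice, it was at 62.7 and 62.6 CPM with isotype, 131 and 143 CPM with R, and 152 and 144 CPM with OF. The anti-CD20 libraries all stood above isotype, and the log2 fold change was 1.13 for R (SE 0.092, adjusted p = 1.44e-09, edgeR) and 1.24 for OF (SE 0.092, adjusted p = 3.46e-10), the highest of the 9 members tested in U2932. In TMD8, where OF chose the gene, it was at 56.2 and 66.1 CPM with isotype, 160.1 and 154 CPM with R, and 184 and 216 CPM with OF. Its isotype level was close in both lines, and the TMD8 log2 differences were 1.37 (SE 0.168) with R and 1.72 (SE 0.170) with OF.

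CDK5R1 encodes p35, an activator of CDK5 best known from neurons, at chr17:32486619-32491256. In U2932 it was low, at 4.48 and 4.21 CPM with isotype, 7.30 and 7.63 CPM with R, and 6.95 and 9.34 CPM with OF. The pairs did not overlap isotype, and the log2 fold change was 0.78 for R (SE 0.18, adjusted p = 0.00175, edgeR) and 0.91 for OF (SE 0.179, adjusted p = 0.000362). In TMD8, where OF chose the gene, it was at 33.9 and 32.3 CPM with isotype, 94.96 and 81.3 CPM with R, and 119 and 109 CPM with OF. The TMD8 log2 differences were 1.42 (SE 0.163) with R and 1.79 (SE 0.164) with OF. CCNI and CDK5R1 share no exon base with another annotated gene.

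The comparison of R with OF asked whether the antibodies, which bind different epitopes of CD20, moved these genes differently. In U2932, with the adjusted p-value limit set at 0.30, 0 of 9 members were called by edgeR and 0 by DESeq2. Of all genes, edgeR called 0.00683% and DESeq2 0%, and 0 members had an unadjusted p-value under 0.05. The log2 fold changes ran from −0.24 for CDKN2D to 0.06 for CDKN1A, and the 95% interval was −0.273 to 0.085 for CDKN2C, −0.299 to 0.071 for CCNI and −0.485 to 0.219 for CDK5R1. In TMD8, 0 of 8 members were called by edgeR and 0 by DESeq2, with 0% of all genes called by either. CCND3 alone of the 8 members had an unadjusted p-value under 0.05. The TMD8 interval was −0.399 to 0.440 for CDKN2C, −0.515 to 0.208 for CDKN1A and −0.272 to 0.560 for CCND2. CCNI and CDK5R1 were lower with R than with OF in both TMD8 cultures, by log2 differences of −0.20 and −0.49 for CCNI and −0.32 and −0.43 for CDK5R1, which are given with no test. R and OF libraries did not overlap for 4 of 9 members in U2932 and for 2 of 8 in TMD8, against 40.8% and 45.9% of all genes.

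The lines were then compared under isotype, by the RNA levels of the members in cells given no anti-CD20 antibody. In a fit of all 12 libraries, 3 of the 7 members tested were called, against 56.1% of 16187 genes. The 7 leave out CCNI and CDK5R1, and also CCND2, which was given no fold since U2932 held 2 isotype reads against 7368. The 16187 genes include ones unread in 1 line, such as CDKN2A, so the 2 shares are of unlike sets. CDKN2C was 6.47-fold higher in U2932 than in TMD8, or 2.69 on the log2 scale (SE 0.137, adjusted p = 2.62e-08, edgeR) and CDKN1B was 2.18-fold higher, or 1.12 (SE 0.121, adjusted p = 1.01e-05), while CCND3 was lower in U2932 (−0.87, SE 0.152, adjusted p = 0.000435). CDKN2D (0.02), CDKN1A (−0.07), CDK4 (0.22) and CDK6 (0.20) were not called, with 95% intervals of −0.416 to 0.447, −0.333 to 0.198, −0.185 to 0.620 and −0.290 to 0.687. Without the 2 libraries that stood apart, CDK6 was at 0.58 (adjusted p = 9.15e-05), just under 1.5-fold. The libraries of the lines did not overlap for 3 of the 7, against 75.9% of all genes. Outside the 7, those of CCND2 and CDK5R1 did not overlap either, while those of CCNI did. CDK5R1, given without a test, was lower in U2932 by a log2 difference of −2.93, and CCNI differed by 0.03.

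**Figure D3:**
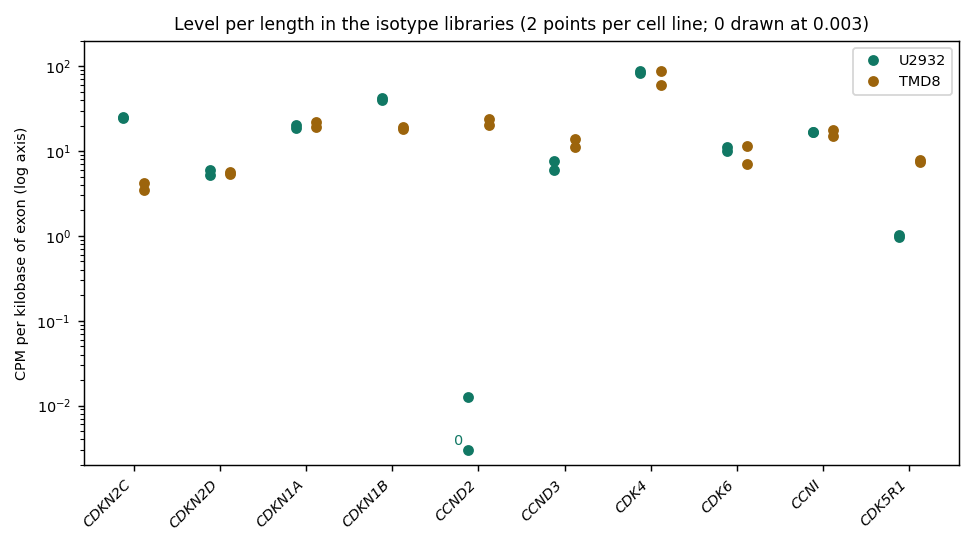
CPM per kilobase of merged exon (log axis) of the 10 genes in the 2 isotype libraries of U2932 (green) and of TMD8 (brown), with a count of 0 drawn at the foot of the axis. CDK4 is highest in both lines, CCND2 is near the floor in U2932, and CDKN2C is the lowest of the 10 in TMD8 and at rank 3 in U2932.

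Per kilobase of exon, CDK4 was the highest member in all 6 conditions, with group means from 71.5 to 92.3 CPM per kilobase. With isotype in U2932 it was followed by CDKN1B (40.9 ± 1.96 CPM per kilobase, SD, n = 2), CDKN2C (24.9 ± 0.451), CDKN1A (19.6 ± 1.26) and CCNI (16.7 ± 0.014), then CDK6, CCND3, CDKN2D, CDK5R1 and CCND2, and no neighbours in that order overlapped between libraries. With R or OF in U2932, CDKN2C took rank 2, at 45.1 ± 0.199 and 48.0 ± 0.871 CPM per kilobase, CCNI rank 3 and CDKN1B rank 5, while CCND3 and CDK6 overlapped. With isotype in TMD8 the order after CDK4 was CCND2 (22.2 ± 2.34 CPM per kilobase), CDKN1A (20.6 ± 2.10), CDKN1B (18.8 ± 0.610) and CCNI (16.3 ± 1.88), of which CDKN1A overlapped CCND2 and CDKN1B overlapped CDKN1A. CDKN2C came last in that condition, at 3.86 ± 0.5001 CPM per kilobase, and took rank 8 with R or OF, where it overlapped CDKN2D at rank 9 with R, and where CDK6 came last with R but overlapped CDKN2D with OF.

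Whether the lines responded differently was tested on the mean change with R and OF, as TMD8 minus U2932, in the fit of all 12 libraries. With edgeR, 0 of 7 members were called, against 1.02% of all genes, with CCND2 again left out. DESeq2 also called 0, beside 1.33% of the 31437 genes it fitted. CDKN2D and CCND3 had unadjusted p-values under 0.05 with edgeR. The difference was 0.79 for CDKN2D (SE 0.243, 95% interval 0.258 to 1.327, adjusted p = 0.203, edgeR), and it was called with the culture as a block (adjusted p = 0.0694), beside 4.5% of all genes, and without the 2 libraries that stood apart (0.76, adjusted p = 0.0523). For CCND3 it was −0.49 (SE 0.185, adjusted p = 0.308, edgeR), and it was called without TMD8 isotype replicate 1 (−0.64, adjusted p = 0.0979). For CDKN2C the interval was −0.129 to 0.567 and for CDKN1A −0.410 to 0.241. The difference of CDK5R1 was 0.75 (SE 0.193) and that of CCNI was 0.35 (SE 0.159), both given without a test since TMD8 chose them.

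Other genes of the G1 pathway were followed in 6 lists. In U2932, 3 of the 47 list genes tested were called with either antibody, or 6.38%, beside 10.2% of all genes with R and 11.1% with OF. By list, 0 of 7 other G1 cyclins and CDKs, 0 of 4 other CDK inhibitors, 0 of 6 phosphatase and ubiquitin ligase genes and 0 of 9 p53 targets tested were called with R by edgeR. The same counts held with OF and with DESeq2 for both antibodies. DESeq2 called 3.63% of the 28066 genes it fitted with R and 3.78% with OF. At an unadjusted p-value under 0.05 these lists had 3, 0, 5 and 2 genes with R and 4, 0, 5 and 4 with OF, and all 6 lists together had 18 of 47 (38.3%) with R and 26 of 47 (55.3%) with OF, beside 37.5% and 39.5% of all genes. E2F6, a repressive member of the E2F family, was the only called gene of 13 in the RB and E2F list, higher by 0.84 for R (SE 0.109, adjusted p = 2.25e-06, edgeR) and 0.76 for OF (SE 0.110, adjusted p = 1.04e-05). Its CPM was 18.9 and 21.0 with isotype, 35.0 and 36.2 with R, and 32.1 and 35.0 with OF, without overlap. Median log2 fold changes of these lists with R ranged from −0.23 to 0.19.

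Among 8 tested relatives of cyclin I and CDK5 in U2932, CDK5, the kinase that p35 activates, was higher by 0.83 with R (SE 0.126, adjusted p = 1.96e-05, edgeR) and by 0.76 with OF (SE 0.127, adjusted p = 5.85e-05). It stood at 12.6 and 10.7 CPM with isotype, 20.7 and 20.6 CPM with R, and 20.6 and 18.8 CPM with OF. CDK17, a kinase of the PCTAIRE group, was lower by −0.61 with R (SE 0.097, adjusted p = 3.09e-05, edgeR) and −0.68 with OF (SE 0.098, adjusted p = 9.18e-06), and was below 1.5-fold after a correction for GC content (−0.53 and −0.55). The R value was also below 1.5-fold without R replicate 1 (−0.57) or isotype replicate 2 (−0.57). The other 6 were not called, and the median was 0.15 with R and 0.12 with OF.

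In TMD8 with R, edgeR called 2 of the 48 list genes tested, CCNE2 among 8 other G1 cyclins and CDKs and PHLDA3 among 10 p53 targets, or 4.17% beside 0.647% of all genes. With OF it called 0 of 48, beside 0.815% of all genes. DESeq2 called 2 with OF, CCNE2 and PHLDA3, beside 1.58% of the 26975 genes it fitted. At an unadjusted p-value under 0.05 stood 13 of 48 (27.1%) with R and 11 of 48 (22.9%) with OF, beside 15.9% and 14.1% of all genes, among them 5 and 3 of the 10 p53 targets. With the culture as a block, 8 of 48 (16.7%) were called with each antibody, beside 11% of all genes with R and 9.75% with OF. CCNE2, which encodes cyclin E2, a partner of CDK2, was at 18.3 and 14.2 CPM with isotype, 45.8 and 40.4 CPM with R, and 36.7 and 31.2 CPM with OF. Both antibodies stood above isotype, with log2 fold changes of 1.42 (SE 0.199, adjusted p = 0.0738, edgeR) with R and 1.07 (SE 0.198, adjusted p = 0.108, or 0.00564 with the culture as a block) with OF. PHLDA3, a p53 target that restrains AKT, was at 13.5 and 13.5 CPM with isotype, 4.29 and 4.23 CPM with R, and 4.53 and 7.54 CPM with OF. It lay below isotype with both antibodies, at −1.65 (SE 0.272, adjusted p = 0.0989, edgeR) with R and −1.15 (SE 0.266, adjusted p = 0.146, or 0.0205 with the block) with OF. The R calls were lost without R replicate 1 (adjusted p = 0.894 for both genes), R replicate 2 (0.647 for CCNE2 and 0.688 for PHLDA3) or isotype replicate 2 (0.103 and 0.110).

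**Figure D4:**
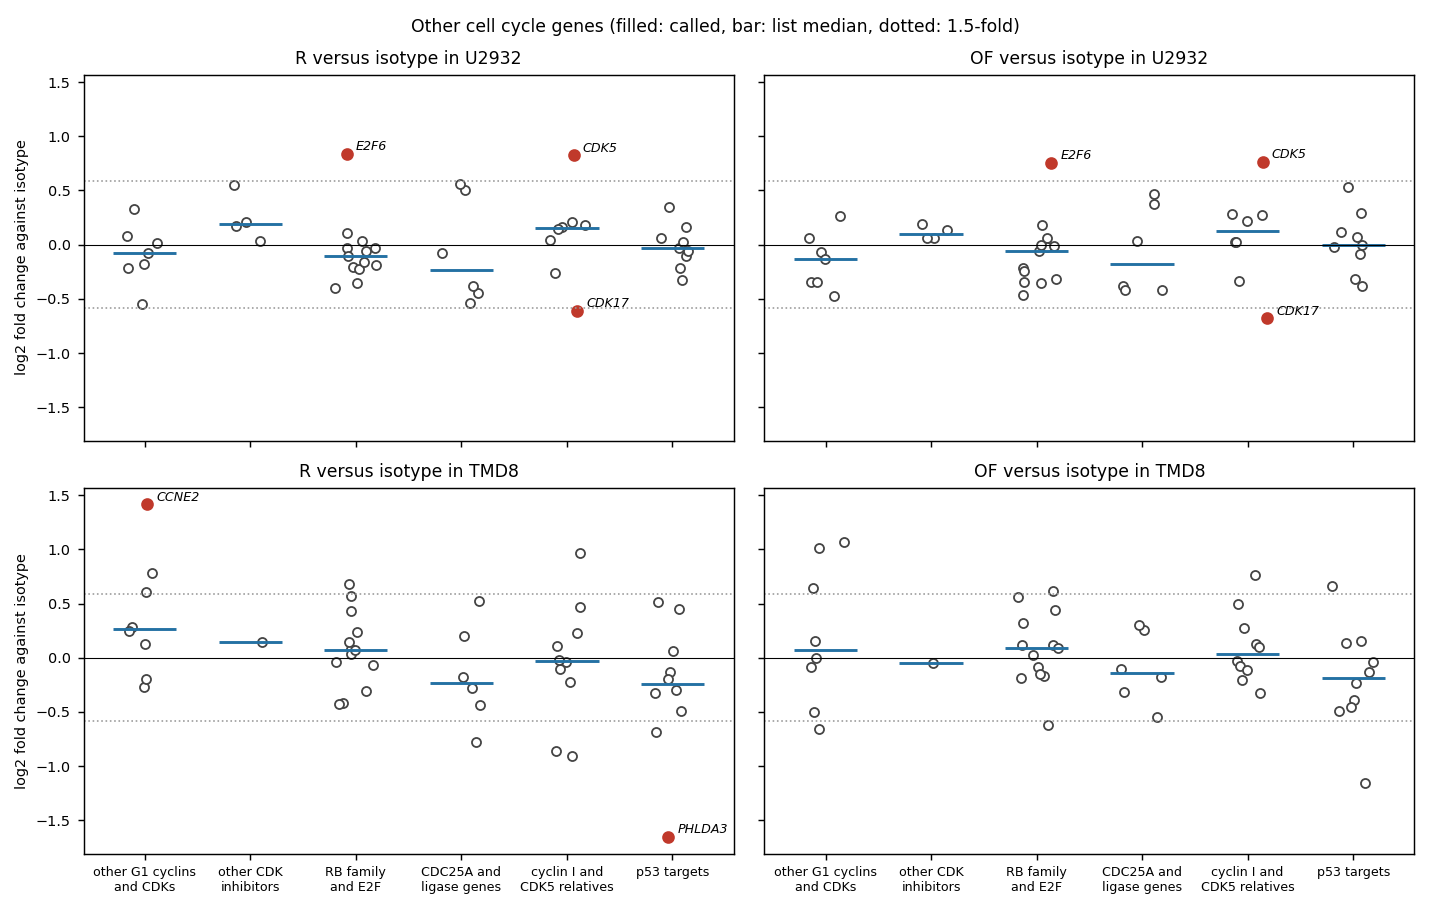
Log2 fold change against isotype of the tested genes of 6 lists around the G1 machinery, in each line with R (left) and OF (right). Filled points are called genes, bars are list medians and dotted lines mark 1.5-fold, and most points lie between the dotted lines, with E2F6, CDK5 and CDK17 called in U2932 and CCNE2 and PHLDA3 with R in TMD8.

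Singled out after their values were seen, the INK4 genes CDKN2A and CDKN2B and the CIP/KIP gene CDKN1C had 0 reads in all 6 TMD8 libraries, where a count of 0 allows up to 0.106 to 0.206 CPM. In U2932, CDKN2A was at 210 to 257 CPM, CDKN2B at 22.6 to 28.8 CPM and CDKN1C at 0.745 to 1.85 CPM. TMD8 thus had reads of CDKN2C and CDKN2D but of neither other INK4 gene. CCND1, the remaining D-type cyclin, had at most 20 reads in any library of either line.

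The genes most like 3 members were found by the correlation of log2 CPM over the 12 libraries after each line's mean was subtracted, among 12722 genes, as a description in which libraries share line, antibody and culture. CDKN2C was most like CDCA8 (r = 0.987), FUT8 (0.979) and CYB5R1 (0.977). CCNI was most like TMCO3 (0.988), SH3BP5 (0.987) and TSR2 (0.980). CDK5R1 was most like AC012181.1 (0.990), SH3KBP1 (0.989) and SQLE (0.979). Likeness of pattern did not mean likeness of size, since CDCA8 had log2 fold changes of 0.25 to 0.36 over the 4 comparisons with isotype and FUT8 of 1.04 to 1.55.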

How the data were processed

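RNA was sequenced as 12 NEBNext Ultra II libraries from 2 cultures of each line. The authors trimmed and aligned the reads (Trim Galore 0.6.0 and STAR 2.7.0e on GRCh38 by the submitters' processing notes) and deposited the raw counts per Ensembl gene, with no normalization or filter. DESeq2 1.26.0 is also named there. The annotation release and the use of strand are not given in the sources used here. Each column was matched to 1 library by its name, and 0 columns were left unused.

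GENCODE 29 matched 58611 of 58884 identifiers and gave symbols, positions and exon lengths. Counts were tested in R 4.3.3 with edgeR 4.0.16 (filterByExpr with a minimum count of 10, TMM, glmQLFit, glmQLFTest), per line with 1 mean per antibody, or over 12 libraries for comparisons between lines. P-values were adjusted over all genes tested (14635, 14227 and 16187). A call needed 1.5-fold and an adjusted p-value below 0.10, with 0.30 as the limit for R against OF in U2932. CPM use factors over 12 libraries. Intervals of fold changes are at 95%.

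Same-numbered libraries of a line come from 1 culture by the labels' treatment protocol. Their deviations from the condition means correlated in TMD8 at 0.221 for R and OF, 0.226 for R and isotype and 0.685 for OF and isotype. In U2932 the same pairs were at −0.048, 0.105 and 0. The replicate chi-square per degree of freedom was 2.3 to 9.75 in U2932 and 5.46 to 94.5 in TMD8, where 1 is counting error alone. The cultures of a line were split from 1 stock, so p-values measure the spread between these cultures.

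Alternatives were DESeq2 1.42.0, other normalizations and filters, the replicate block, a GC content correction (lowess, span 0.3), 1 fit of 12 libraries, other limits, leaving out each library, and, chosen after seeing the data, leaving out both TMD8 libraries that stood apart. The members and gene lists were chosen with earlier results of these data known. Named genes are the 10 members, list genes called in a comparison with isotype (at most 3 per list and comparison) and the 3 genes most correlated with CDKN2C, CCNI and CDK5R1 (log2 CPM, prior count 2), and others are marked as chosen after their values were seen. The fit was tested on data simulated from the means and depths of the U2932 libraries, with no culture effect. No data were simulated from TMD8. Figures were drawn with matplotlib 3.10.9.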

Additional observations from a re-analysis of the deposited data

Results flagged for a closer look

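The change with the 2 antibodies differed between the lines, by the interaction term of edgeR's quasi-likelihood test over 12 libraries, for 4 of the 58 member and list genes tested (6.9%, beside 1.02% of all genes) and, with the replicate block, for 6 of 58 (10.3%, beside 4.5%). RB1, E2F7, CCNG2 and GADD45A were named after their values were seen. As TMD8 minus U2932 on the log2 scale, the difference was 0.94 for CCNE2 (SE 0.190, adjusted p = 0.0744), 0.79 for RB1, the retinoblastoma gene (SE 0.169, adjusted p = 0.0829), 1.04 for E2F7, a repressive E2F factor (SE 0.220, adjusted p = 0.0769), and 0.83 for CCNG2, an atypical cyclin of resting cells (SE 0.153, adjusted p = 0.0532). With the replicate block alone, it was also called for CDKN2D (0.79, adjusted p = 0.0694) and GADD45A, a p53 target (−0.68, adjusted p = 0.0377).

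RB1 was at 73.2 CPM with isotype, 57.2 with R and 57.1 with OF in U2932, and at 261, 349.5 and 352 CPM in TMD8, as means of 2 libraries. E2F7 was at 54.9, 41.6 and 39.5 CPM in the same order in U2932, and at 34.1, 54.2 and 50.2 CPM in TMD8. Both genes were lower with the antibodies in U2932 and higher in TMD8, and both lost the call after the correction for GC content (RB1 0.66, adjusted p = 0.137, and E2F7 0.98, adjusted p = 0.116) and with library size only (0.77, adjusted p = 0.127, and 1.03, adjusted p = 0.141). All 4 unblocked calls were lost when any 1 of the U2932 libraries or either TMD8 R library was left out, and the 4 differences lay between 0.64 and 1.32 whichever library was left out.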

How the results depend on the processing

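The number of members called held within 1.5 times in every alternative for OF with isotype in U2932, R with OF in both lines and the lines under isotype. For R with isotype in U2932 it was 4, and 8 without a limit on the fold (34.2% of all genes). DESeq2 called 2.05% of the 26975 genes it fitted in TMD8 with R and 1.58% with OF. In TMD8, the number of members called by edgeR was 1 for R and 1 for OF, where 0.647% and 0.815% of all genes were called. It became 2 and 3 with DESeq2 (553 and 425 genes called in all), 0 and 0 with library size only (0.464% and 0.176% of all genes) or an adjusted p-value under 0.05 (0% and 0%), 3 and 3 without a filter on low counts (4.05% and 3.37%), 4 and 3 with the replicate block (11% and 9.75%), 3 and 3 with the GC content correction (3.22% and 3.11%), 5 and 3 with the replicate block and the GC content correction (9.78% and 9.56%), 4 and 3 with all 12 libraries in one fit (8.4% and 7.23%), and 3 and 3 without both libraries that stood apart (13.4% and 12.4%). Leaving out each library gave 0 to 2 for either, with at most 3.54% and 3.29% of all genes called. For the difference between the lines' responses it was 0, and 1 with the replicate block (4.5% of all genes), with the replicate block and the GC content correction (3.76%) and without the libraries that stood apart (7.64%), and 0 to 1 when leaving out each library. The block changed no call of a member in U2932 or between R and OF.

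Of 1959 single-gene values recomputed, 59 changed sign, each with a log2 fold change of at most 0.31 and no call, and 0 called values did. With 2 cultures per condition the spread is known poorly, above all in TMD8.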
